A study of Mus musculus with 24 samples.

Results

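The 8 genes described here encode the nuclear factor I proteins NFIA, NFIB and NFIX and 5 products used as markers of astrocyte progenitors, the glutamate transporters SLC1A2 and SLC1A3, the brain fatty acid binding protein FABP7, and the enzymes ALDOC and ALDH1L1. They were taken by name from the table of normalized counts, which lists 51912 genes. All 8 were among the 16454 genes that passed the filter on low values (4 or more of the 24 libraries at a normalized count of 10 or higher). The libraries were made from dissected mouse archicortex (ARK), the medial strip of the dorsal telencephalon that holds the cortical hem and the dentate neuroepithelium, in 6 groups of 4 libraries each on a mixed C57BL/6J and MF1 background.

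On GRCm38 (GENCODE M21) the NFI genes lie at chr4:97772734-98118874 on the plus strand (Nfia, ENSMUSG00000028565), chr4:82290173-82705750 on the minus strand (Nfib, ENSMUSG00000008575) and chr8:84699876-84800344 on the minus strand (Nfix, ENSMUSG00000001911). Slc1a2 (ENSMUSG00000005089) lies at chr2:102658659-102790784 on the plus strand and Slc1a3 (ENSMUSG00000005360) at chr15:8634124-8710764 on the minus strand. Fabp7 (ENSMUSG00000019874), Aldoc (ENSMUSG00000017390) and Aldh1l1 (ENSMUSG00000030088) lie on the plus strand at chr10:57784881-57788450, chr11:78322968-78327781 and chr6:90486427-90600203. Values are for the whole gene, summed over its exons.

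At E12.5, Sox9fl/fl;Sox1Cre mutants (libraries A9 to A12) were set against Sox9+/+;Sox1Cre controls (A13 to A16). At E13.5, Sox9fl/fl;Sox1Cre mutants (A1 to A4) were set against Sox9+/+;Sox1Cre controls (A5 to A8), and Sox9fl/fl;NestinCre mutants (A17 to A20) against Sox9+/+;NestinCre controls (A21 to A24). Controls thus carried the same Cre as their mutants, and Sox1Cre is a targeted insertion in Sox1, so every library of that line had only 1 intact copy of Sox1. By the study's account, Sox1Cre acts first and deletes Sox9 in all of the archicortex, hem included. At E13.5 the later NestinCre transgene has deleted Sox9 in the dentate neuroepithelium but spares most of the hem. The depth, as reads recovered on genes, lay between 16163560 and 49445219 (median 23016925). The questions put to these genes were how far their transcripts rose between E12.5 and E13.5, and whether deletion of Sox9 changed their level or that rise.

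As background, radial glia of the embryonic cortex first produce neurons and later switch to making astrocytes. SOX9, a transcription factor of the SoxE family, acts early in this switch: in the spinal cord it is known to induce NFIA and then to act with it on shared targets. NFI proteins bind DNA as dimers to a palindrome whose arms read TTGGC, and loss of Nfia, Nfib or Nfix delays the maturation of hippocampal progenitors. They are not restricted to glia, since young cortical neurons also express them. Slc1a3 and Fabp7 are already transcribed in radial glia and Fabp7 is a known target of Notch signalling through RBPJ, whereas Slc1a2, Aldoc and Aldh1l1 are best known from more mature astrocytes.

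A promoter window each of Aldoc and Fabp7 is shown because these genes stood at opposite ends of the change with age described below. Each window runs from 250 bases before to 50 bases after a RefSeq start (GRCm38.p6, plus strand in both cases, 5′ to 3′), at chr10:57784673-57784972 for Fabp7 and chr11:78322823-78323122 for Aldoc. Capitals mark TTGGC, the arm of the NFI site, and TGGGAA, the core of the RBPJ site, on either strand (TTCCCA is the RBPJ core read on the opposite strand).
Fabp7: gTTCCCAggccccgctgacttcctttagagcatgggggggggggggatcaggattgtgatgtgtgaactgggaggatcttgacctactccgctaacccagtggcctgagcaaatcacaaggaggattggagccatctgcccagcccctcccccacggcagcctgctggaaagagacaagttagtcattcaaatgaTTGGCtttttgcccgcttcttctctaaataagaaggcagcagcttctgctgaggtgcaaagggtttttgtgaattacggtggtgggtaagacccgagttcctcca
Aldoc: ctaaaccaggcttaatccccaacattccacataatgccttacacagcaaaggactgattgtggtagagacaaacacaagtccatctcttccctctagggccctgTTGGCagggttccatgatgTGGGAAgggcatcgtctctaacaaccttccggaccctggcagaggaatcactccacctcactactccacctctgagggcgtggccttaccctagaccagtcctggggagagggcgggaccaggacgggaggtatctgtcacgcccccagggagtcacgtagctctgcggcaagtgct
Both windows held 1 TTGGC and 1 RBPJ core. Another window of Aldoc, at chr11:78323948-78324247, held 2 RBPJ cores (bases 234 to 239 and 268 to 273) and no TTGGC. In Fabp7 the TTGGC lay at bases 196 to 200 and the RBPJ core at bases 2 to 7, and in Aldoc they lay at bases 105 to 109 and 124 to 129, counted from 1 at the 5′ end. These letters are common: TTGGC was found in 46.7% of all 32851 windows and TGGGAA in 25.6%. Windows were given for 7 of the 8 genes, 11 in all, and 6 of these 11 held TTGGC. The full NFI palindrome, with 5 bases between the arms, was in 0 of the 11 and in 0.0365% of all windows. The SOX core CATTGT was in 1 window each of Nfia (bases 159 to 164) and Nfix (bases 36 to 41) and in 12.6% of all windows. The motifs did not overlap one another in the windows printed.

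Sox9 checked the genotypes. At E12.5 it had 2785, 1734, 2593 and 1929 normalized counts in the mutants A9 to A12 and 4391, 5265, 4237 and 4194 in the controls A13 to A16. At E13.5 it had 3563, 2828, 3384 and 3677 in the Sox1Cre mutants and 5218, 5912, 5450 and 5731 in their controls. It had 3089, 2997, 3083 and 3369 in the NestinCre mutants and 5636, 4979, 4586 and 5406 in their controls. Every mutant library lay below every control of its own set, and no library went against its label. The fitted level in mutants was 0.492, 0.601 and 0.610 of that in controls, in the same order (limma adjusted p = 6.3e-05, 0.0021 and 0.0297). By the study's account Cre removes only some exons of Sox9, and the exon left in place is still expressed in mutants. These counts cover the whole gene and so can hold reads of the deleted allele. They do not measure how much intact Sox9 transcript remained. In the NestinCre set Sox9 did not pass in 8 of the 24 fits that left out 1 library (A13, A17 to A22 or A24), with adjusted p up to 0.11. Sox1 was lower in the Sox1Cre line than in the NestinCre line in both genotypes, with 1135 ± 163.5 (SD, n = 4) in Sox1Cre controls and 2127 ± 309.3 in NestinCre controls at E13.5.

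Some libraries stood apart in ways the groups do not describe. Xist, the transcript of the inactive X chromosome, split the libraries into 11 female (3526 or more normalized counts) and 13 male (6.41 or fewer). All 4 E12.5 Sox1Cre controls were female and all 4 E13.5 Sox1Cre controls were male, so that age and sex cannot be told apart among the controls. Mutants of each set were 2 female and 2 male, and NestinCre controls 1 female and 3 male. Library A18, a NestinCre mutant, had 545.9 summed normalized counts of 5 ventral telencephalon markers against 8.97 to 63.5 in the other 23 libraries, and library A1, a Sox1Cre mutant, had 7075 of 5 choroid plexus markers against 14442 to 85490 in the others. The dorsal telencephalon markers fitted the labelled tissue, led by Lhx2 with a mean of 15920 normalized counts. Of 4 markers of mature astrocytes, Gfap had a mean of 4.26 normalized counts over the 24 libraries, S100b of 0.792, Aqp4 of 76.3 and Gjb6 of 127, so that Gfap and S100b were near 0 and the other two were detected at low counts.

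Per length of exon, Nfix and Fabp7 were the most abundant of the 8 in E13.5 controls and Aldh1l1 the least. In E13.5 Sox1Cre controls the level was 4110 ± 833.4 normalized counts per kb (SD, n = 4) for Nfix and 3617 ± 920.4 for Fabp7. Nfib followed with 2353 ± 416.9 per kb, Aldoc with 2347 ± 524.7 and Nfia with 1320 ± 223.8. The transporters were lower, Slc1a3 at 339.7 ± 99.6 and Slc1a2 at 72.5 ± 15.9 per kb, and Aldh1l1 was at 4.27 ± 1.27. By this length Nfix and Fabp7 did not differ beyond their spread, nor did Nfib and Aldoc. Per length of the longest transcript, Nfib and Aldoc lay farther apart, at 3861 and 2748 per kb. At E12.5 the order was another one, with Fabp7 first at 3375 ± 725.6 per kb in controls, Nfix at 1805 ± 141.9 and Aldoc below Nfia at 753.0 ± 81.8 and 935.9 ± 85.6.

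**Figure D1:**
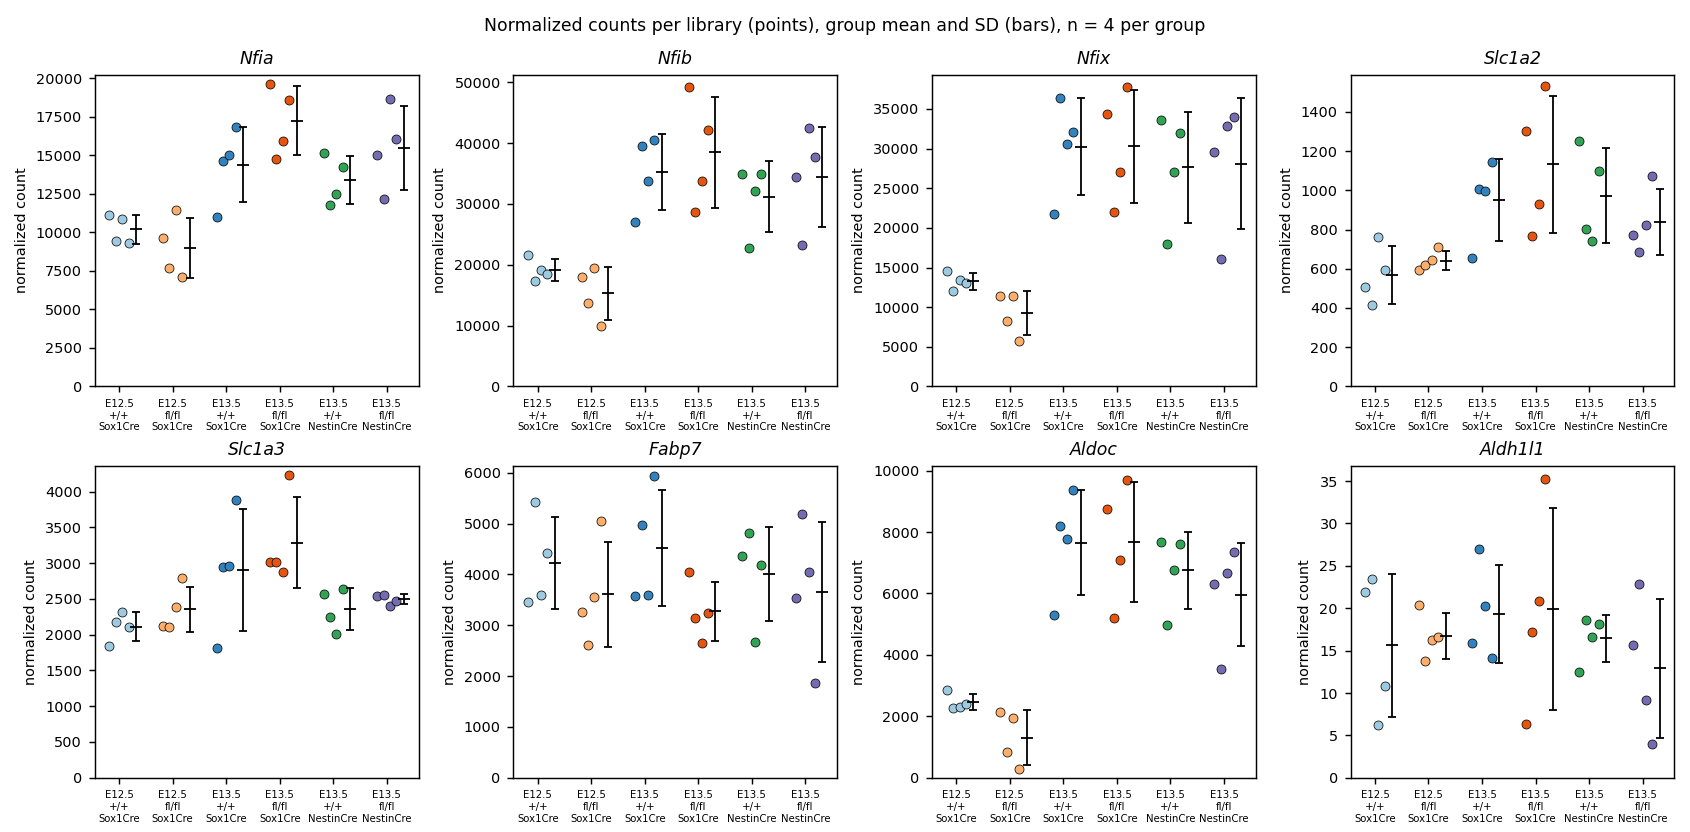
Normalized counts (y axis, from 0, a separate scale for each gene) of the 8 genes in each of 24 libraries (points), grouped by age, genotype and Cre line on the x axis, with group mean and SD (bars, n = 4). Nfib, Nfix and Aldoc of every E13.5 group lay above both E12.5 groups, whereas Fabp7 overlapped in all 6 groups and Aldh1l1 stayed between 3.95 and 35.2 normalized counts.

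Between E12.5 and E13.5 the NFI genes, Aldoc and Slc1a2 rose and Fabp7 did not change detectably. In Sox9+/+;Sox1Cre controls 5 of the 8 genes passed the threshold upward (Nfia, Nfib, Nfix, Slc1a2 and Aldoc) and 0 downward, where 6.33% of all genes tested passed upward and 11.5% in either direction. This control count was 0 with log2 Xist as a covariate and lay between 1 and 6 without 1 library, as described below. In Sox9fl/fl;Sox1Cre mutants 6 of 8 passed upward, the 5 named for controls and Slc1a3, and 0 downward. Of all genes, 13.8% passed upward in mutants and 25.9% in either direction. The threshold was an adjusted p of 0.05 from limma on log2(normalized count + 1), and changes are log2 differences on that scale. In controls the median change of the 8 genes was 0.61, and in mutants 0.86, beside medians over all genes tested of -0.00159 and -0.00794.

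Nfix, which acts in the later maturation of progenitors, had the largest change of the NFI genes. It had 14571, 12036, 13382 and 13088 normalized counts in the E12.5 controls A13 to A16 and 21788, 36371, 30604 and 32094 in the E13.5 controls A5 to A8. In mutants it had 11452, 8296, 11423 and 5689 at E12.5 and 34419, 21977, 27002 and 37732 at E13.5. The ages did not overlap in either genotype, and the lowest E13.5 library stood well above the highest E12.5 library. The log2 change was 1.17 (95% interval 0.64 to 1.69, limma adjusted p = 0.0068) in controls, a 2.24-fold rise, and 1.74 (1.21 to 2.27, limma adjusted p = 0.000184) in mutants, a 3.34-fold rise.

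Nfib, required for glial development in the forebrain, was the most abundant of the 8 as a normalized count. It had 21587, 17325, 19172 and 18467 in E12.5 controls and 26973, 39527, 33788 and 40517 in E13.5 controls. In mutants it had 18036, 13737, 19418 and 9951 at E12.5 and 49295, 28637, 33845 and 42156 at E13.5. Here too the ages were separate in both genotypes. The log2 change was 0.87 (0.42 to 1.31, limma adjusted p = 0.0136) in controls and 1.35 (0.90 to 1.79, limma adjusted p = 0.000292) in mutants.

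Nfia, the NFI gene known to be induced downstream of SOX9, changed least of these 3. Its controls had 11125, 9457, 10861 and 9327 at E12.5 and 11010, 14617, 15044 and 16823 at E13.5, so that the ages overlapped through library A5. Its mutants had 9648, 7689, 11423 and 7114 at E12.5 and 19606, 14784, 15946 and 18602 at E13.5, without overlap. The log2 change was 0.48 (0.17 to 0.80, limma adjusted p = 0.0425) in controls and 0.96 (0.64 to 1.27, limma adjusted p = 0.000279) in mutants. Exons of Nfia overlap E130114P18Rik on the opposite strand, which had a mean of 1138 normalized counts, and the strand setting of the counting is not stated. Exons of Nfix likewise overlap Lyl1, which had a mean of only 79.4. Nfic, the NFI gene outside the 8, rose by 0.44 in controls (0.21 to 0.66, limma adjusted p = 0.0146) and by 0.53 in mutants (0.30 to 0.76, limma adjusted p = 0.0017).

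Aldoc, the brain aldolase of glycolysis, rose most of all 8. It had 2848, 2261, 2318 and 2400 normalized counts in E12.5 controls and 5295, 8182, 7782 and 9367 in E13.5 controls. In mutants it had 2143, 829.1, 1943 and 268.9 at E12.5 and 8739, 5217, 7089 and 9684 at E13.5. The ages were separate in both genotypes, with A12 far below the other E12.5 mutants. The log2 change was 1.61 (limma adjusted p = 0.0188), or 3.06-fold (1.66 to 5.66), in controls and 2.93 (limma adjusted p = 0.000184), or 7.61-fold (4.12 to 14.1), in mutants, where it was 2.31 without library A12.

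The glutamate transporters changed less than Aldoc, Nfix and Nfib. Slc1a2 had 509.3, 413.2, 761.9 and 593.9 in E12.5 controls and 655.7, 1009, 994.9 and 1147 in E13.5 controls, with a log2 change of 0.75 (0.28 to 1.21, limma adjusted p = 0.0341). In mutants it had 593.1, 620.2, 642.1 and 708.7 at E12.5 and 1300, 767.6, 929.5 and 1534 at E13.5, a log2 change of 0.77 (0.31 to 1.23, limma adjusted p = 0.0145). Control values overlapped between the ages and mutant values did not. Slc1a3, the transporter already present in radial glia, passed in mutants (log2 change 0.47, 0.13 to 0.81, limma adjusted p = 0.0375), with 2127, 2101, 2393 and 2786 at E12.5 and 3011, 3017, 2879 and 4238 at E13.5. In controls its log2 difference was 0.41 (0.07 to 0.75, limma adjusted p = 0.109), with 1836, 2183, 2323 and 2102 at E12.5 against 1807, 2943, 2963 and 3885 at E13.5.

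Fabp7 and Aldh1l1 did not pass in either genotype. Fabp7, the radial glial lipid carrier, had 3450, 5418, 3588 and 4418 in E12.5 controls and 3580, 4984, 3588 and 5935 in E13.5 controls, a log2 difference of 0.09 (-0.46 to 0.64, limma adjusted p = 0.869). In mutants the difference was -0.12 (-0.67 to 0.43, limma adjusted p = 0.784). A rise of the size seen in Aldoc is outside both intervals. Aldh1l1, a folate enzyme used as a general astrocyte marker, had between 6.27 and 27.0 normalized counts in controls and between 6.39 and 35.2 in mutants, and its interval in mutants, -0.94 to 1.02 on the log2 scale, is too wide to exclude a change of the size of that in Nfia.

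**Figure D2:**
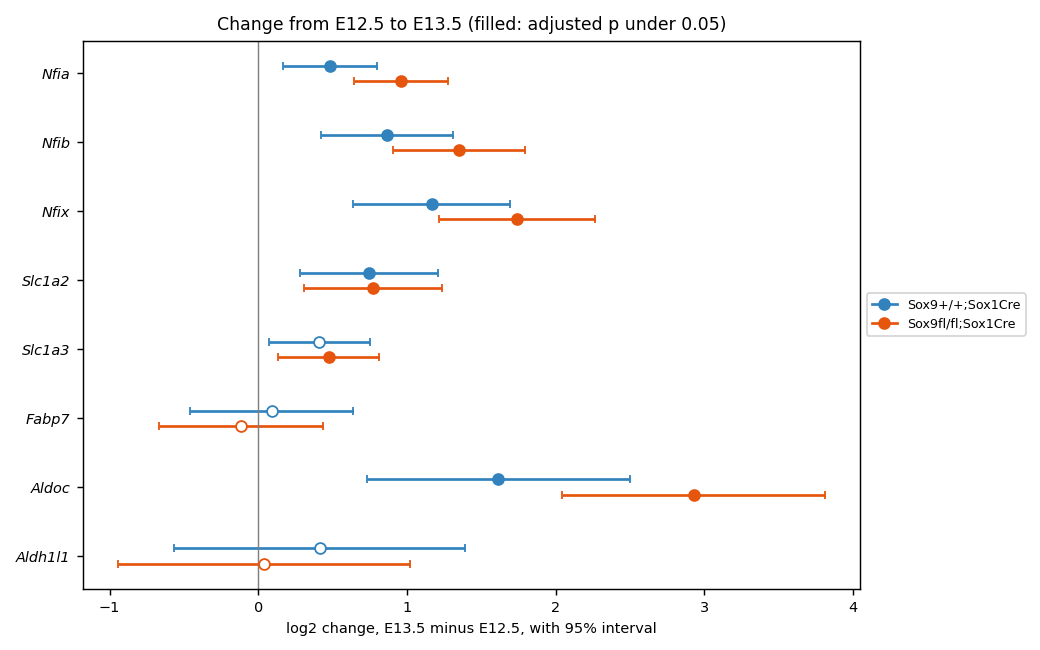
Log2 change from E12.5 to E13.5 (x axis) of each gene in Sox9+/+;Sox1Cre controls and Sox9fl/fl;Sox1Cre mutants, with 95% intervals from limma, filled where the adjusted p was under 0.05. Aldoc and Nfix lie farthest to the right in both genotypes, at 1.61 and 1.17 in controls and 2.93 and 1.74 in mutants, and Fabp7 lies at 0.09 and -0.12.

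Expressed as overlap, 3 of the 8 genes (Nfib, Nfix and Aldoc) had all E13.5 controls above all E12.5 controls, where 9.23% of all genes did, and 6 of 8 had all E13.5 mutants above all E12.5 mutants, where 12.4% of all genes did. An exact permutation test gave p = 0.0286 for each of these genes, the smallest two-sided p that 4 against 4 libraries allow, among 40 such tests run. The control comparison depended on single libraries and on sex. Without A6 or without A8 only Nfix passed, without A7, A13, A14 or A16 3 genes passed (Nfib, Nfix and Aldoc), without A15 or A17 4 passed (Nfia was lost), and without A5 6 passed. In mutants Slc1a3 no longer passed without A9, A10 or A11, and neither transporter passed without A4. With log2 Xist as a covariate 0 of the 8 and 0 of all genes passed in controls by limma (2460 genes were at an unadjusted p under 0.05), at log2 changes of 0.97 for Nfix (limma adjusted p = 0.17), 1.53 for Aldoc (0.202), 0.71 for Nfib (0.221), 0.35 for Nfia (0.383) and 0.46 for Slc1a2 (0.413). In mutants, in which the sexes were balanced, the same 6 genes passed with that covariate and when libraries of the same sex were compared.

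Markers of several cell types differed in level between the ages as well. The summed normalized counts of 7 neuron markers, of which Tubb3 was the most abundant, were 21390 ± 572.8 (SD, n = 4) in E12.5 controls and 33860 ± 8295 in E13.5 controls, and 21770 ± 1459 and 35440 ± 10670 in mutants. Of the 7, 5 rose in each genotype, and in mutants 1 fell (Trp73). Those of 7 hem and dentate neuroepithelium markers, led by Wnt8b, were 32650 ± 5788 and 20170 ± 3220 in controls and 36230 ± 5485 and 20180 ± 5982 in mutants. Of these 7, 3 fell in controls, and 4 fell and 1 rose (Lef1) in mutants. The sum of 6 radial glia markers moved less, from 63410 ± 1774 to 61040 ± 1775 in controls and from 62240 ± 5097 to 56530 ± 2454 in mutants, where 2 of the 6 rose and 2 fell. The sum of 5 dorsal telencephalon markers, led by Lhx2, went from 27510 ± 3490 to 32340 ± 3818 in controls, where 1 rose and 1 fell, and from 22690 ± 3978 to 32170 ± 5436 in mutants, where 4 rose and 1 fell. Those of 5 erythroid markers, led by Hbb-y, were 153000 ± 11500 at E12.5 and 89100 ± 25950 at E13.5 in controls and 134600 ± 7594 and 76310 ± 21600 in mutants. Those of 5 choroid plexus markers, led by Ttr, were 20630 ± 5282 and 43340 ± 17840 in controls and 30220 ± 9751 and 56270 ± 34140 in mutants, the last with A1 at 7075. Those of 6 meninges markers, led by Col3a1, were 42510 ± 8294 and 36140 ± 5025 in controls, where 1 rose (Dcn), and 41180 ± 7228 and 30310 ± 10250 in mutants, where Dcn rose and Lum and Foxc1 fell. Of single markers, 4 of 5 erythroid genes fell in controls and 3 fell and 1 rose in mutants, whereas 0 of 5 choroid plexus genes passed in controls and 1 rose in mutants (Kl). The part of these shifts in the rise of the NFI genes and Aldoc was not tested, and in bulk tissue fewer cells of a type and less RNA per cell cannot be told apart.

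Within groups, the NFI genes and Aldoc moved together from library to library. In all 6 groups the library lowest in Nfix was also lowest in Nfib and Aldoc, and in 5 of 6 it was lowest in Nfia as well. These libraries were A2, A5, A12, A14, A18 and A22, and Nfia was lowest in A16 instead of A14 among E12.5 controls. In 5 of the 6 groups the same library was the lowest in summed neuron markers, and in 4 of 6 it was the highest in hem markers. Slc1a2 was lowest in that library in 4 of 6 groups, whereas Slc1a3 and Fabp7 were in 1 of 6 each. Library A12 was the lowest of all 24 relative to its group in Aldoc and Nfib. It had 20.8% of its group mean of Aldoc, 61.7% of Nfix and 65.1% of Nfib. Its hem markers were at 123% of the group mean. Its neuron markers, though the lowest of the group, were at 92.6% and so moved far less than Aldoc.

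**Figure D3:**
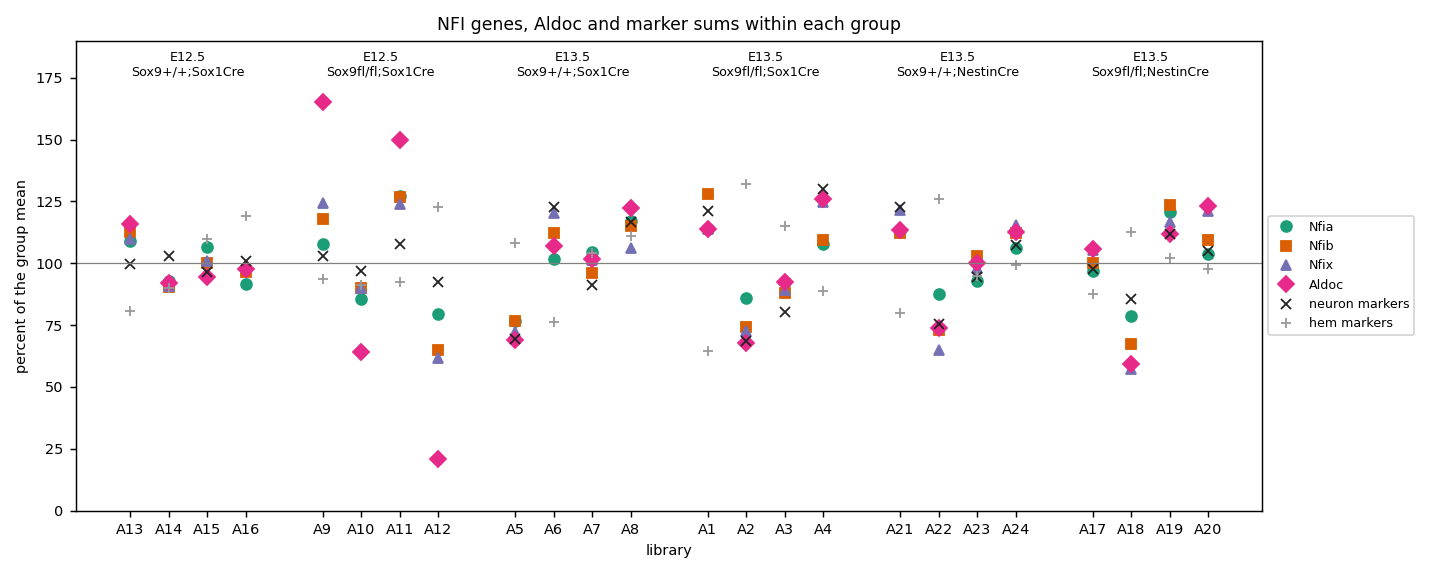
Percent of the group mean (y axis, from 0) of Nfia, Nfib, Nfix, Aldoc and the summed neuron and hem markers in each library (x axis), for the 6 groups of 4 libraries. The 4 genes fall together in A2, A5, A12, A18 and A22, and Aldoc spreads most, from 20.8% in A12 to 165% in A9.

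After deletion of Sox9, 0 of the 8 genes passed the threshold in any of the 3 sets. Of all genes tested, 0.924% passed in Sox1Cre mutants at E13.5, 0.723% at E12.5 and 0.0669% in NestinCre mutants at E13.5. At an unadjusted p under 0.05 Aldoc and Nfix were lower in E12.5 mutants and the other 22 of 24 values did not pass. The same count of 0 was obtained with edgeR and DESeq2 on the recovered reads, with log2 Xist as a covariate and without any 1 library.

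At E13.5 the differences in the Sox1Cre line were smaller than the spread between libraries for Nfib and Nfix, and none of the NFI genes passed. Nfia had a log2 difference of 0.27 (-0.05 to 0.58, limma adjusted p = 0.524), with all but 1 control, A8 at 16823, at or below 15044 and mutants from 14784 to 19606. Nfib differed by 0.12 (-0.33 to 0.56, limma adjusted p = 0.9) and Nfix by -0.00 (-0.53 to 0.52, limma adjusted p = 0.999). The intervals of Nfib and Nfix therefore leave out a loss to below 0.693 of the control level. All 4 of these controls were male and 2 of the 4 mutants were female. Between libraries of the same sex the log2 differences were 0.43 for Nfia (limma adjusted p = 0.301), 0.39 for Nfib (0.497) and 0.28 for Nfix (0.728). This comparison rested on only 2 mutants, the males A1 and A4. A1 was the library low in choroid plexus markers, and A4 held the outlying value of Slc1a3 given below. In the NestinCre line Nfia had 14987, 12146, 18668 and 16066 in mutants and 15161, 11757, 12466 and 14241 in controls, a log2 difference of 0.20 (-0.12 to 0.51, limma adjusted p = 0.953). Nfib and Nfix differed by 0.13 (-0.31 to 0.58) and 0.01 (-0.52 to 0.53), both with a limma adjusted p of 1.

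Among the progenitor markers at E13.5, Fabp7 had the lowest point estimate in the Sox1Cre line. It had 4057, 3147, 2652 and 3243 normalized counts in mutants and 3580, 4984, 3588 and 5935 in controls, with 3 of the 4 mutants below all controls, 2 of them (A2 and A3) female where all controls were male. The log2 difference was -0.45 (-0.998 to 0.103, limma adjusted p = 0.545), and in the NestinCre line it was -0.19 (-0.74 to 0.36, limma adjusted p = 1). Between libraries of the same sex Fabp7 differed by -0.28 in the Sox1Cre line (limma adjusted p = 0.727) and by -0.01 in the NestinCre line. The NestinCre value averaged the sexes, and its only female control was A23, the lowest of its group. Female means of Fabp7 there were 3527 in mutants and 2679 in A23, and male means were 3793 and 4455. The sexes thus went opposite ways. In the Sox1Cre line the comparison of the same sex gave 0.60 for Slc1a2 (limma adjusted p = 0.274), 0.35 for Slc1a3 (0.456) and 0.30 for Aldoc (0.857). Over all libraries Slc1a2 differed by 0.23 (-0.23 to 0.69) and -0.20 (-0.66 to 0.26) in the Sox1Cre and NestinCre lines, and Slc1a3 by 0.21 (-0.13 to 0.55) and 0.09 (-0.25 to 0.43). Aldoc differed by -0.00 (-0.89 to 0.88) and -0.21 (-1.10 to 0.67), with 6298, 3526, 6665 and 7347 in NestinCre mutants against 7666, 4974, 6771 and 7608 in their controls. Aldh1l1, at low counts, differed by -0.13 (-1.11 to 0.85) and -0.54 (-1.52 to 0.44), and these intervals are wide.

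At E12.5 Aldoc and Nfix had lower values in every mutant library than in every control. Of the 8 genes these 2 did not overlap in that direction, where 5.93% of all genes tested did (exact permutation test, p = 0.0286 for each, the smallest possible). Aldoc had a log2 difference of -1.32 (-2.20 to -0.43, limma adjusted p = 0.169), 0.402 of the control level. For Nfix it was -0.58 (-1.11 to -0.05, limma adjusted p = 0.323), 0.670 of the control level. Neither passed after adjustment over all genes. Without library A12 the differences were -0.69 for Aldoc (limma adjusted p = 0.436) and -0.37 for Nfix (0.654), and between libraries of the same sex they were -0.95 (0.686) and -0.44 (0.747). Nfib differed by -0.37 (-0.81 to 0.08), Nfia by -0.21 (-0.52 to 0.11), Fabp7 by -0.24 (-0.79 to 0.31), Slc1a2 by 0.20 (-0.26 to 0.67), Slc1a3 by 0.15 (-0.19 to 0.49) and Aldh1l1 by 0.25 (-0.73 to 1.23). Without 1 library Nfib lay between -0.50 and -0.18, Nfia between -0.33 and -0.10 and Fabp7 between -0.42 and -0.10. Slc1a2 then lay between 0.06 and 0.35, Slc1a3 between 0.07 and 0.20 and Aldh1l1 between -0.09 and 0.49.

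**Figure D4:**
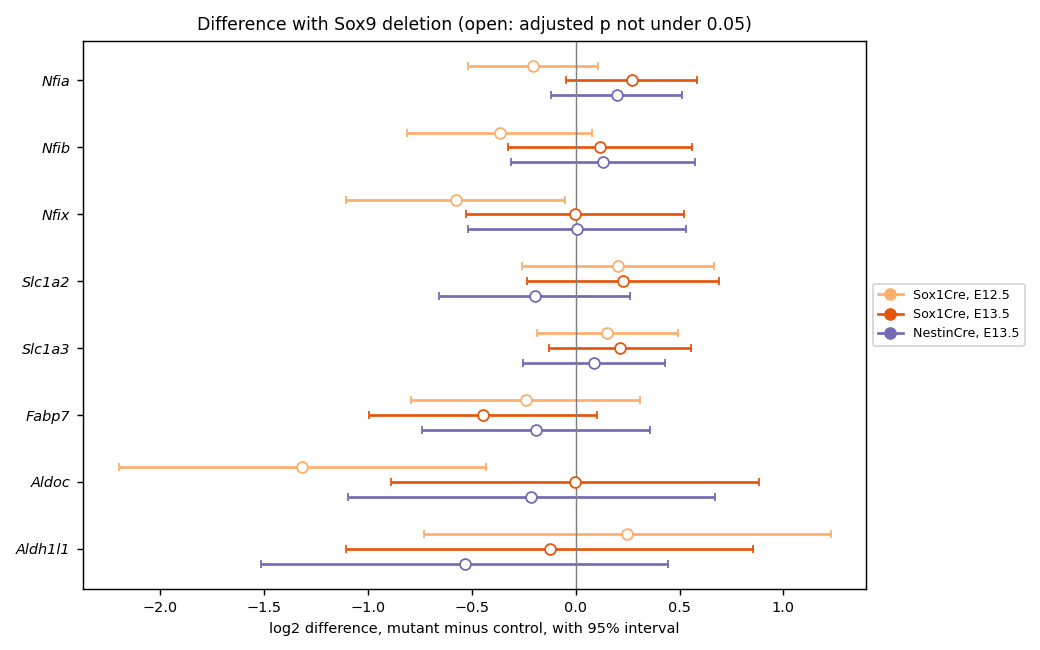
Log2 difference between mutants and their controls (x axis) for each gene in the 3 sets, with 95% intervals from limma; all points are open because no adjusted p was under 0.05. The intervals of Aldoc and Nfix at E12.5 lie below 0 (-2.20 to -0.43 and -1.11 to -0.05), and all others hold 0.

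The difference between these effects was tested directly. By age, the effect of Sox9 deletion in the Sox1Cre line was higher at E13.5 than at E12.5 by 1.31 for Aldoc (0.06 to 2.56, limma adjusted p = 0.655), 0.58 for Nfix (-0.17 to 1.32, adjusted p = 0.76), 0.48 for Nfib (-0.15 to 1.11, adjusted p = 0.762) and 0.47 for Nfia (0.03 to 0.92, adjusted p = 0.652). Without 1 library these differences lay between 0.69 and 1.69 for Aldoc and between 0.36 and 0.72 for Nfix. They lay between 0.29 and 0.61 for Nfib and between 0.35 and 0.60 for Nfia. None of the 8 passed, and neither did any gene tested (0.0%, with 1217 genes at an unadjusted p under 0.05, 0 genes by edgeR and 20 by DESeq2). The larger rise in mutants than in controls is the same contrast and is thus not shown to differ. By Cre line at E13.5 0 of the 8 passed, where 0.0425% of all genes did. The widest-placed values were 0.43 for Slc1a2 (-0.23 to 1.08) and 0.41 for Aldh1l1 (-0.98 to 1.80).

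Close relatives of the 8 genes were followed from a list of 11, of which 10 were tested. With age 5 passed upward and 1 downward in each genotype. Slc1a1, a neuronal glutamate transporter, rose by 1.76 (SE 0.526, limma adjusted p = 0.0343) in controls and 2.53 (SE 0.526, limma adjusted p = 0.00182) in mutants. Slc1a4, an amino acid transporter, Fabp5, a fatty acid binding protein, and Aldh1l2, the mitochondrial relative of Aldh1l1, rose in both genotypes, as did Nfic above. Aldoa, the ubiquitous aldolase, fell by 0.30 in controls, and Slc1a5 fell by 0.35 in mutants. After Sox9 deletion 0 of the 10 passed in each of the 3 sets.

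Of 36 other astrocyte and radial glia genes, 33 were tested. With age 8 rose and 1 fell in controls, and 10 rose and 5 fell in mutants, with median log2 changes of 0.29 and 0.17. Bcan, a proteoglycan of the glial matrix, rose by 3.66 in controls and 4.93 in mutants, and Ndrg2 by 1.18 and 2.15. Sparcl1, a secreted matrix protein of astrocytes, rose by 1.14 and 1.17, while Id3, a target of BMP signalling, fell by 1.15 and 1.57. Vim, an intermediate filament of radial glia, fell by 0.37 in mutants. After Sox9 deletion 3 of the 33 fell and 0 rose in Sox1Cre mutants at E13.5 (among them Hopx by 0.60 and Vim by 0.26), and 3 fell and 0 rose at E12.5 (Hopx by 0.63, Ttyh1 by 0.89 and Ndrg2 by 1.80). In NestinCre mutants 0 of the 33 passed.

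Of 7 genes known as shared or single targets of SOX9 and NFIA in gliogenesis, Sox9 itself included, 3 fell in Sox1Cre mutants at E13.5. Of all genes tested, 0.924% passed in that set. Sox9 is the deleted gene, so its fall was fixed by the genotype, and Hopx was also in the list before. Beside these, Mmd2, a gene of astrocyte precursors, fell by 1.53 (SE 0.346, limma adjusted p = 0.0329). With age Mmd2 rose by 1.34 in controls and 1.05 in mutants. At E12.5 2 of the 7 fell (Sox9 and Hopx), and in NestinCre mutants 1 did (Sox9), where 0.723% and 0.0669% of all genes passed.

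Among 27 genes of gliogenic signalling, 26 were tested. With age 1 rose and 4 fell in controls, and 5 rose and 7 fell in mutants. Stat3, the effector of gliogenic cytokines, rose by 0.54 and 0.78, whereas the ligands Bmp2 and Bmp4 fell by 1.04 and 1.003 in controls and by 1.74 and 1.52 in mutants. The Notch ligand Dll1 fell by 0.29 and 0.54. After Sox9 deletion Notch1 fell by 0.82 at E13.5 and by 0.45 at E12.5 in the Sox1Cre line, 1 of 26 in each set, and 0 of 26 passed in the NestinCre line.

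The genes most like each of the 8 were taken as the 3 with the highest Pearson r of log2 values over the 24 libraries, among genes with a mean of at least 100. These values share libraries, groups and depth and are a description only. Nfib and Nfix were each other's closest gene (r = 0.984), followed by Dpysl3 and Coro2b (0.982 each) for Nfib and by Epha5 and Kcnip3 (0.982 each) for Nfix. Nfia was closest to Hrk (0.967), Nfib (0.965) and Celf2 (0.954), and Aldoc to Cadps (0.972), Nrg1 (0.969) and Rnf217 (0.969). Slc1a2 was closest to Sh3kbp1 (0.92), Ss18l1 (0.916) and Sh3rf3 (0.912), and Slc1a3 to Mmd (0.916), Nuak1 (0.891) and Trp53inp2 (0.877). Fabp7 reached only 0.716, with Zbtb40, AI464131 (0.701) and Nrarp (0.7), a feedback inhibitor of Notch signalling. By Spearman's rho only 1 of these 3, Zbtb40, was again among the closest 3, and Nrarp was not. Aldh1l1, with its low counts, reached 0.666, with Alg5, Arl2 (0.636) and Gm6166 (0.627).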

How the data were processed

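The authors made 24 RNA-seq libraries of dissected archicortex, and sample titles put 4 in each of 6 groups. Per the study's methods and the submitters' processing notes, reads were trimmed with Trimmomatic 0.36, aligned to GRCm38 with STAR 2.5.2a and counted per gene with RSEM 1.2.31, and the authors scaled each library's counts by its DESeq2 size factor. What was deposited is the resulting signal, a normalized count, neither log transformed nor pooled. Its values are whole multiples of 1 step per library (tolerance 0.1 read), which gave back the reads for the count models. In library A3 the step is close to 1, which leaves less room for this check. The strand setting is not given in the sources used here.

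Genes at 10 or more normalized counts in 4 or more libraries were tested with limma 3.58.1 (R 4.3.3) on log2(normalized count + 1), which understates the change of low genes, with 1 mean per group over all 24 libraries, an empirical Bayes trend and 18 residual degrees of freedom. P-values were two-sided with Benjamini-Hochberg adjustment over 16454 genes and a threshold of 0.05. For single genes all 35 ways to split 8 libraries were enumerated (exact permutation test). Nothing in the labels states that libraries of a group came from separate litters, so p-values measure the spread between these libraries. Alternatives were pseudocounts of 0.5 and 5, no filter, a mean of at least 100, the libraries of 1 comparison, quantile normalization, log2 Xist as a covariate, edgeR 4.0.16, DESeq2 1.42.0, leaving out each library, the longest transcript for lengths and Spearman's rho for likeness; the comparison within sexes was added after seeing the data.

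Exon lengths and overlaps came from GENCODE M21 (GRCm38), and promoter windows from RefSeq. The genes named are the 8 genes, Sox9 and Sox1, listed genes past the threshold, up to 10 per list, and for each of the 8 the 3 genes most like it. A listed gene that passed is not reported here by name. The 8 genes and all lists were chosen with earlier results of these data known, so they are not independent of them. Tested on simulated data with 200 changed genes among 16169 (Sox9 deletion, Sox1Cre line, E13.5), limma recovered 73.5% with 1.34% false calls. The simulation gave all genes 1 dispersion and changed only genes with a mean of at least 100. Aldh1l1 lay below that mean. The SD of the 8 genes ran from 2.74% of the group mean (Slc1a3, NestinCre mutants) to 69.1% (Aldoc, E12.5 mutants). The recovery is thus not a measure of power for these 8 genes.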

Additional observations from a re-analysis of the deposited data

Results flagged for a closer look

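Of the 48 groups of 4 values (8 genes in 6 groups), 1 held a value far from the other 3 by Dixon's criterion (a gap, as a share of the group's range, past the 95% critical value). Slc1a3 had 4238 normalized counts in library A4, an E13.5 Sox9fl/fl;Sox1Cre mutant, where the other 3 libraries lay between 2879 and 3017, a gap of 0.899 of the range. Chance flags about 1 in 20 such groups. Without A4, Slc1a2 and Slc1a3 no longer passed the threshold for the change with age in mutants, and the 4 genes Nfia, Nfib, Nfix and Aldoc did.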

How the results depend on the processing

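The count of 0 of 8 genes past the threshold after Sox9 deletion was obtained in all 3 sets, and for the differences by age and by Cre line, under every alternative run. For the change with age in Sox1Cre controls the count of 5 became 3 with no filter beyond a value above 0, 0 with log2 Xist as a covariate, 4 with the libraries of the comparison only and 6 with DESeq2 (Slc1a3 in addition), stayed at 5 under the other 5 alternatives, and lay between 1 and 6 when each library was left out in turn. For the change with age in mutants the count of 6 lay between 5 and 6 under the other alternatives and between 4 and 6 without 1 library. No log2 change that passed in either fit turned its sign. Sox9 itself did not pass in the NestinCre line with the Xist covariate (log2 difference -0.68, limma adjusted p = 0.0617), nor between libraries of the same sex in the Sox1Cre line at E13.5 (-0.62, adjusted p = 0.0697) and the NestinCre line (-0.66, adjusted p = 0.16), a comparison that uses fewer libraries. In the NestinCre line it also did not pass without A13, A17, A18, A19, A20, A21, A22 or A24, 8 of the 24 fits that leave out 1 library (16 passed), at log2 differences of -0.77 to -0.67 and adjusted p up to 0.11 over all 24. Counts over all genes moved more: for Sox9 deletion the 152, 11 and 119 genes of the Sox1Cre E13.5, NestinCre and Sox1Cre E12.5 sets became 44 to 358, 2 to 37 and 44 to 294 under the alternatives and 90 to 510, 2 to 12 and 50 to 226 without 1 library. For age the 1892 genes of controls became 0 to 2370 and 794 to 2629, and the 4263 of mutants 2133 to 4702 and 2948 to 4725, in the same order. The 7 genes that differed by Cre line became 5 to 95 and 5 to 144. The cause was not tested. Spearman's rho named 0 of the same 3 most similar genes for Nfib, Nfix, Aldoc and Aldh1l1. With the longest transcript as length, E13.5 Sox1Cre controls had 5518 normalized counts per kb for Nfix, 5138 for Fabp7, 3861 for Nfib and 2748 for Aldoc. Nfia then had 1509, Slc1a3 653.8, Slc1a2 82.1 and Aldh1l1 4.62. Aldh1l1 had the lowest counts of the 8 genes, at 3.95 to 35.2 normalized counts. Libraries are numbered through the series and no number is shared between groups. No paired analysis was possible because the groups compared share no replicate number.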

Other observations

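Of 12 neurogenic genes tested between E12.5 and E13.5, 7 rose and 0 fell in Sox1Cre controls and 6 rose and 0 fell in mutants, with median log2 changes of 0.64 and 0.68, while 5 and 6 did not pass. With log2 Xist as a covariate 0 of all genes passed in controls (limma), where age and sex cannot be told apart. Neurod6, a factor of young glutamatergic neurons, rose by 2.97 (SE 0.531, limma adjusted p = 0.00261) and 3.62 (SE 0.531, limma adjusted p = 0.000188). Neurod2 rose by 1.27 and 1.56 and Dcx, a microtubule protein of migrating neurons, by 1.10 and 1.27. Neurod4 was the only one of the 12 to pass after Sox9 deletion by limma, higher by 1.71 in E12.5 mutants (SE 0.391, limma adjusted p = 0.0417). It did not pass by limma in Sox1Cre mutants at E13.5. The paper, which used DESeq2, reported it as upregulated in that set.

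Of 16 transcription factors linked to gliogenesis, 14 were tested, and 2 rose and 1 fell with age in controls and 5 rose and 2 fell in mutants. Sox8, the close relative of Sox9, rose by 2.28 (SE 0.481, limma adjusted p = 0.00575) and 3.41 (SE 0.481, limma adjusted p = 0.000165). Zbtb20, a hippocampal zinc finger factor, rose by 1.51 in mutants, and Zeb1 rose by 0.28 in controls and 0.23 in mutants. None of the 14 passed after Sox9 deletion (limma), in any of the 3 sets.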
